A study of Mus musculus with 22 samples.

Results

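Mouse liver carboxylesterases are described here, 9 genes of the Ces1, Ces2 and Ces3 subfamilies (Ces1d, Ces1e, Ces1f, Ces1g, Ces2a, Ces2c, Ces2e, Ces3a and Ces3b). They were picked by gene name from the 18716 rows of a deposited RNA-seq table. The rule uses no measured value, although the family was chosen with earlier results of these data known. All livers were labelled Fah-/-, so every group shares the disruption of Fah (fumarylacetoacetate hydrolase), which completes the degradation of tyrosine. The 7 livers called YC came from mice that had received hepatocytes labelled td and were given an agent labelled YC until day 28 after NTBC was withdrawn. NTBC is a drug that blocks tyrosine breakdown upstream of Fah and so protects livers that lack it. The 8 livers called vehicle came from transplanted mice given vehicle over the same 28 days. The 7 livers called D0 are labelled as normal liver at day 0. The dose of YC, the age, sex and strain of the mice, the source of the donor cells and the host cells left in each liver are not stated in the labels. The labels do not say whether the libraries of a group stem from different mice, so p-values describe only how far these samples spread, which may be technical. According to the design text, the livers were profiled to look at dedifferentiation of transplanted hepatocytes under YC.

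Carboxylesterases are serine hydrolases of the endoplasmic reticulum that cleave esters, amides and thioesters. In the liver they activate or clear ester drugs, and several also hydrolyse stored triglyceride or cholesteryl ester, feeding fatty acids into very low density lipoprotein. The mouse has many more of these genes than the human, arranged in tandem arrays, so that a single human gene corresponds to a subfamily in the mouse.

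Library depth, estimated from the steps of low values, lay between 49800000 and 82300000 in YC livers, 50500000 and 71200000 in vehicle livers, and 50600000 and 65800000 in D0 livers. Whether these are reads or fragments is not known. Fah, the targeted gene, had a median of 128.1 RPKM in YC livers (31.5 to 406.7), 401.4 RPKM in vehicle livers (271 to 541.6) and 28.6 RPKM in D0 livers (21.1 to 38.8). RPKM are read numbers scaled by gene length and by library size. The livers YC 6 and YC 7 stood apart in Fah, with 41.3 and 31.5 RPKM. Hepatocyte markers were abundant in all livers: the summed level of 10 markers was 33710 to 66070 RPKM in YC livers, 62460 to 96430 RPKM in vehicle livers and 52040 to 70710 RPKM in D0 livers. Y-linked transcripts summed to 5.55 to 35.6 RPKM in all 8 vehicle livers and to 17.4 to 31.9 RPKM in YC 1, YC 2 and YC 3. They summed to 0 in YC 4 to YC 7 and to at most 0.0454 in D0 livers. The presence of Y-linked transcripts and the difference between vehicle and D0 therefore cannot be told apart. These transcripts were also uneven between YC and vehicle livers, and their part in that comparison was not tested. Pancreatic acinar markers were highest in YC 4 (438.7 RPKM summed, against 24.8 to 106 RPKM in the other YC livers) and in vehicle 1 (189.8 RPKM). These are bulk samples, in which fewer cells of a type and less RNA per cell cannot be told apart.

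All 9 genes lie on mouse chromosome 8 in the GENCODE annotation of mm10, in tandem arrays. The Ces1 array spans 360 kb (chr8:93020214-93379725, minus strand) and holds Ces1d at 93166068 to 93197838, Ces1e at 93201218 to 93229619, Ces1f at 93256236 to 93279747 and Ces1g at 93302369 to 93337308. The Ces2 and Ces3 genes share a second array of 360 kb on the plus strand (chr8:104734003-105093929), 11354 kb away. It holds Ces2a at 104734003 to 104741634, Ces2c at 104847068 to 104854483, Ces2e at 104926260 to 104934672, Ces3a at 105048601 to 105058413 and Ces3b at 105083753 to 105093929. These positions cover whole genes with their exons and introns, and all 9 are annotated as protein coding. Coding sequences were 75.6% to 81.8% identical between the Ces1 genes and 83% to 84.3% between the Ces2 genes. Those of Ces3a and Ces3b were 95.3% identical, with a shared run of 194 bases, so the division of reads between this pair is uncertain.

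Promoter sequences were taken from RefSeq (GRCm38.p6) for Ces1e, Ces1g, Ces2a, Ces2c, Ces2e and Ces3b. The 160 bases before the RefSeq start are shown for 4 of them that stand for the patterns described below: Ces3b and Ces1e, lower in YC livers, Ces2c, higher, and its neighbour Ces2a, which was not called. Each runs 5′ to 3′ on the gene's own strand and ends at the base before the start. Capitals mark matches to the short motifs listed next, on either strand (ATTGG, for one, is CCAAT on the other strand).
Ces3b, chr8:105083595-105083754, plus strand: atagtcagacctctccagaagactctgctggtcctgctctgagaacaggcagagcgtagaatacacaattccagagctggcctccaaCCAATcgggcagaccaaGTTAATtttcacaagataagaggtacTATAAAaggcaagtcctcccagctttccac
Ces1e, chr8:93229620-93229779, minus strand: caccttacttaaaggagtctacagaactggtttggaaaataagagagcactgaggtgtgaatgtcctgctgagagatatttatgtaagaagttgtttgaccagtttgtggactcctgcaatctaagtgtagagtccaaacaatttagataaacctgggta
Ces2c, chr8:104846908-104847067, plus strand: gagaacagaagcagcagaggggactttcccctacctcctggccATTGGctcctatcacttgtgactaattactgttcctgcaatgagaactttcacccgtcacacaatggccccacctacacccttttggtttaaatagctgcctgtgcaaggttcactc
Ces2a, chr8:104733843-104734002, plus strand: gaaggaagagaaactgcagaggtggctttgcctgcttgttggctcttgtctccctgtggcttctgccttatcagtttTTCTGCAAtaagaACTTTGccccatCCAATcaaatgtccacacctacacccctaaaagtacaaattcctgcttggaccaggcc

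The motifs were searched on both strands of the 250 bases upstream of each start: TATAAA for the TATA box, CCAAT for the box of that name, AGGTCA for a nuclear receptor half-site, GTTAAT for an HNF1 half-site, CAAAGT for an HNF4 core, TTGCNNAA for a C/EBP core, TTCNNNGAA for a STAT core and TGACNNNGC for an antioxidant response core. TATAAA, found in 12.4% of 32851 promoters, was held by Ces3b at 30 to 25 bases upstream of the start and by Ces1g at 26 to 21 bases upstream, on the other strand. Ces3b also held GTTAAT (6.43% of promoters). CCAAT (33.8%) was held by Ces3b, Ces2c and, at 2 places each, Ces1g and Ces2a. Ces2a and Ces2e each held CAAAGT (12.6%) and TTGCNNAA (9.56%) in this window, and Ces2a also held AGGTCA (14%), which lies further upstream than the stretch shown. Ces2c held no other motif, and Ces1e held none of the 8 motifs. TTCNNNGAA (7.02%) and TGACNNNGC (10.2%) matched none of the 6 promoters. Matches are descriptions of letters, not of bound sites.

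The carboxylesterases did not move as 1 group in YC livers. Against vehicle livers, Ces3a, Ces3b, Ces1e and Ces1d were lower, Ces2c and, by a small margin, Ces2e were higher, and Ces1f, Ces1g and Ces2a did not pass the test. With limma on log2(RPKM + 0.5) and Benjamini-Hochberg adjustment over 12537 genes, 2 of the 9 members were called higher and 4 lower at an adjusted p under 0.05. Over all genes tested, 44.6% were called higher and 6.14% lower. The median log2 fold change of the members was -0.40, against 0.31 over all genes. That excess of higher calls depended on the scaling: as deposited 87.9% of called genes were higher, against 52.9% after median-ratio scaling, where the median of all genes was 0.02. Under that scaling 1 member was called higher and 4 lower, beside 2336 higher and 2076 lower of all 12537 genes. The call lost was that of Ces2e.

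Vehicle livers themselves differed from D0 livers in these genes. Ces1f, Ces2c, Ces1d and Ces1g were lower in vehicle livers, and none of the 9 was called higher. Over all genes, 28.2% were called higher and 29.9% lower in that comparison, and the median log2 fold change was -0.21 for the members and 0.00 for all genes. In YC livers against D0 livers, 6 members were called lower and 1 higher, beside 12.3% of all genes lower and 41.2% higher, with a member median of -1.03 and a median of 0.25 over all genes. Median-ratio scaling gave 49.8% higher among the called genes in this comparison, against 77.1% as deposited, and left 6 members lower and 0 higher. Under it 3401 of all 12537 genes were lower and 3372 higher. The 3 comparisons share livers pairwise, so their results are not independent of each other.

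**Figure D1:**
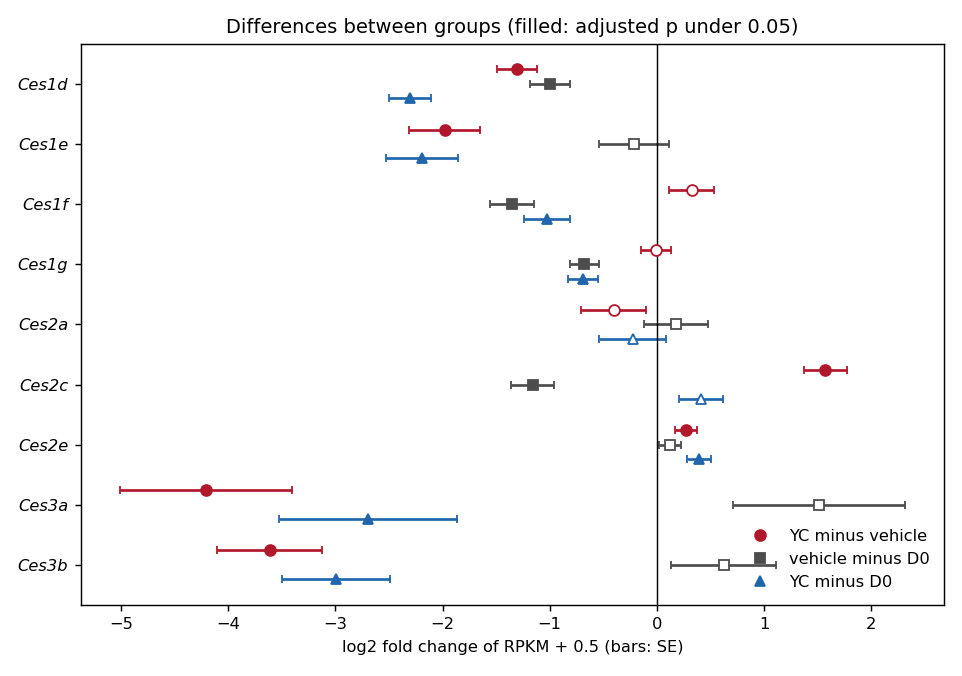
Log2 fold change of RPKM + 0.5 for each of the 9 genes in 3 comparisons (x axis; bars are SE from limma; filled symbols have an adjusted p under 0.05). Ces3a and Ces3b lie farthest to the left in YC minus vehicle, and Ces2c lies at 1.57 in YC minus vehicle and at -1.16 in vehicle minus D0.

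The Ces3 genes showed the largest differences among the members. Ces3a is known in mouse liver as an esterase with a higher level in males. Its level in YC livers 1 to 7 was 8.06, 9.22, 195, 200, 56.8, 2.96 and 1.06 RPKM. In vehicle livers it was 210.7 at the lowest, 428.1 at the median and 636.6 RPKM at the highest, and in D0 livers 82.5, 121.4 and 174.9 RPKM. Every YC liver lay below every vehicle liver, and every vehicle liver lay above every D0 liver. YC 3 and YC 4 came close to the vehicle range, whereas YC 6 and YC 7 had almost no Ces3a. The log2 fold change was -4.21 ± 0.80 (SE) in YC against vehicle livers, an 18.5-fold lower level (adjusted p = 0.000256 by limma), and -2.99 ± 0.64 without YC 6 and YC 7 (adjusted p = 0.000882). The lowest value of the gene, in YC 7, corresponds to about 144 reads or fragments, a rough estimate from the estimated depth and a GENCODE transcript length.

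Between vehicle and D0 livers the log2 fold change of Ces3a was 1.51 ± 0.80 and did not pass (adjusted p = 0.111), although the groups did not overlap. The spread in that fit is shared with the YC livers. With only vehicle and D0 livers in the fit the same difference passed (adjusted p = 4.52e-05), and likewise without YC 6 and YC 7 (adjusted p = 0.0294). All vehicle livers and no D0 liver carried Y-linked transcripts, and the part of sex in this difference was not tested. Among YC livers, Ces3a stood at 8.06, 9.22 and 195 RPKM in YC 1 to YC 3, which carried Y-linked transcripts, and at 200, 56.8, 2.96 and 1.06 RPKM in YC 4 to YC 7, which carried none. In YC against D0 livers, the group mean of Ces3a was lower by 2.69 ± 0.83 on the log2 scale (adjusted p = 0.00938). That call was lost without YC 6 and YC 7 (-1.47 ± 0.66, adjusted p = 0.0635). YC 3 and YC 4 lay above every D0 liver, and the other YC livers lay below every D0 liver.

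Ces3b, the tandem neighbour of Ces3a, showed a similar order of livers within the YC group at a lower level. It had 3.54, 3.18, 37.1, 18.8, 10.3, 2.28 and 1.97 RPKM in YC livers 1 to 7. In vehicle livers its lowest, median and highest levels were 33.3, 95.7 and 169 RPKM, and in D0 livers 41.5, 49.2 and 81.4 RPKM. Of the YC livers, YC 3 alone exceeded a vehicle liver, vehicle 1, and none reached the D0 range. The log2 fold change was -3.62 ± 0.49 in YC against vehicle livers, a 12.3-fold lower level (adjusted p = 6.62e-06), and -2.99 ± 0.50 in YC against D0 livers (adjusted p = 3.56e-05). Without YC 6 and YC 7 the values were -3.05 ± 0.49 (adjusted p = 6.07e-05) and -2.43 ± 0.50 (adjusted p = 0.000385). The difference of 0.62 ± 0.49 between vehicle and D0 livers did not pass (adjusted p = 0.28).

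**Figure D2:**
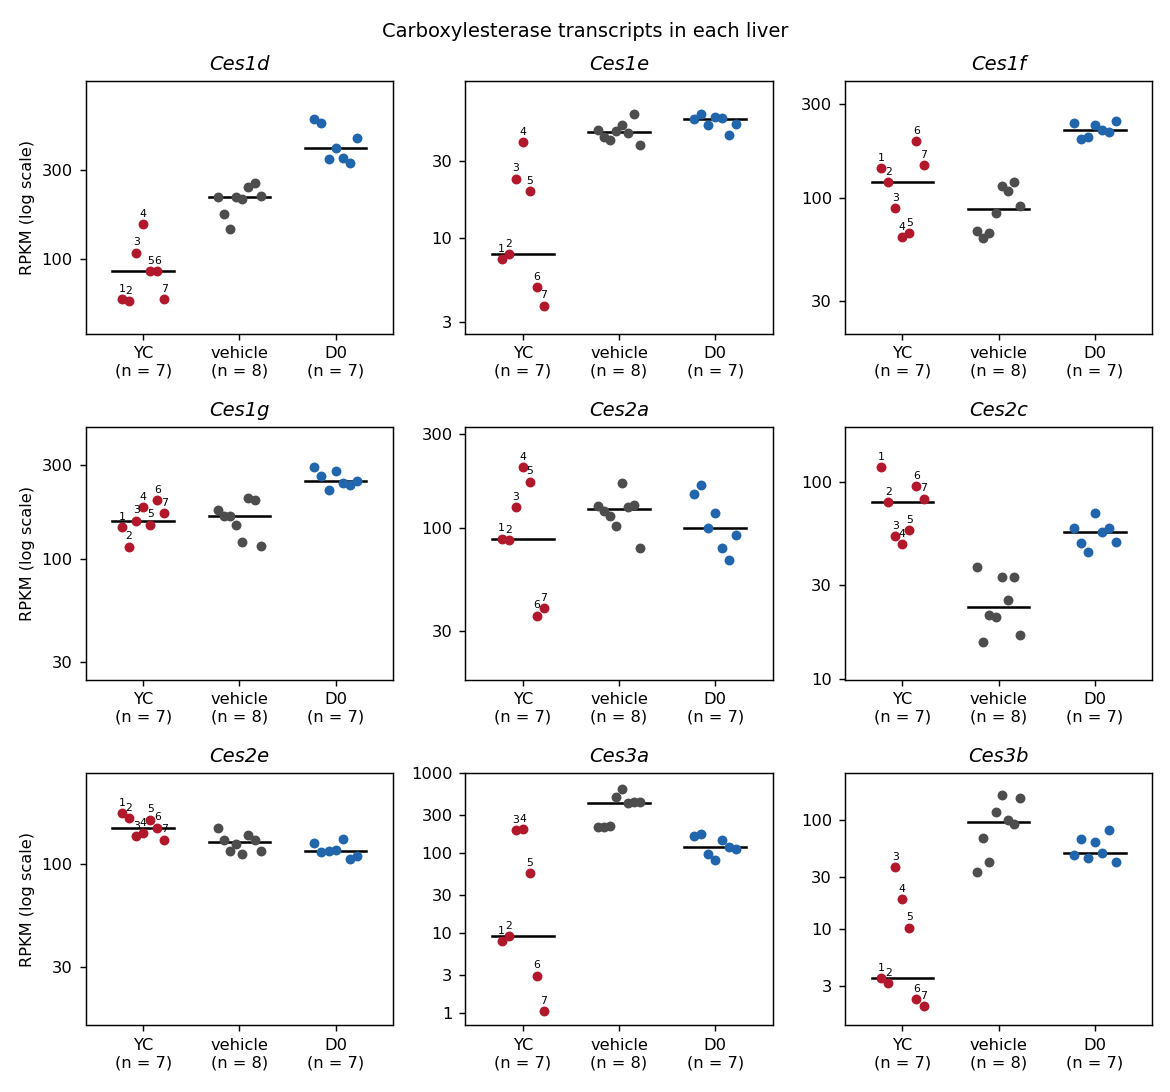
RPKM of each gene in every liver (points; log axis), with YC livers numbered and a line at each group's median. In Ces3a, Ces3b and Ces1e the livers YC 1, YC 2, YC 6 and YC 7 form the low end, and in Ces2c every YC liver lies above every vehicle liver.

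Of the Ces1 genes, Ces1d encodes triacylglycerol hydrolase, which mobilises stored triglyceride for lipoprotein assembly. It was measured at 60.7, 59.5, 108, 154, 86.1, 85.9 and 61.0 RPKM in YC livers 1 to 7. Vehicle livers held 144 at the lowest, 214.5 at the median and 255.3 RPKM at the highest, and D0 livers 325.1, 392.3 and 560.9 RPKM. YC livers were lowest, vehicle livers intermediate and D0 livers highest, with a single overlap where YC 4 exceeded vehicle 3. Ces1d fell by 1.31 ± 0.19 on the log2 scale in YC against vehicle livers (adjusted p = 1.14e-05). It fell by 1.00 ± 0.19 in vehicle against D0 livers (adjusted p = 0.000116) and was lower in YC against D0 livers (-2.30 ± 0.20, adjusted p = 1.55e-09). Without YC 6 and YC 7 the YC against vehicle value was -1.23 ± 0.20.

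Ces1e encodes egasyn, which holds beta-glucuronidase in the endoplasmic reticulum. Its level in YC livers 1 to 7 was 7.34, 7.91, 23.4, 39.6, 19.6, 4.96 and 3.79 RPKM. It ran at 37.5, 45.6 and 59.2 RPKM (lowest, median and highest) in vehicle livers and at 43.8, 55.2 and 59.0 RPKM in D0 livers. Only YC 4 reached the vehicle range, and vehicle and D0 livers overlapped widely. The log2 fold change was -1.98 ± 0.33 in YC against vehicle livers (adjusted p = 4.58e-05), -1.47 ± 0.27 without YC 6 and YC 7 (adjusted p = 0.000138) and -2.19 ± 0.34 in YC against D0 livers (adjusted p = 9.7e-06). Vehicle against D0 livers gave -0.21 (adjusted p = 0.596).

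Ces1f and Ces1g were low in both groups of transplanted livers. Ces1f had 142, 120, 88.4, 63.2, 66.3, 195 and 147 RPKM in YC livers 1 to 7. Its lowest, median and highest levels were 62.5, 87.4 and 120.7 RPKM in vehicle livers and 198.7, 219.9 and 245.4 RPKM in D0 livers. No transplanted liver reached the D0 range, while YC and vehicle livers overlapped. Among the YC livers the order was roughly the reverse of that of Ces1e, with YC 6, YC 7, YC 1 and YC 2 at the top. Ces1f was lower in vehicle against D0 livers (-1.35 ± 0.21 on the log2 scale, adjusted p = 9.81e-06) and in YC against D0 livers (-1.03 ± 0.21, adjusted p = 0.000328). The YC against vehicle value was 0.33 ± 0.21 (adjusted p = 0.195), and it was -0.01 after median-ratio scaling, so no direction is given.

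Ces1g, whose loss in mice raises liver and plasma lipids, varied least among the Ces1 genes within the YC group. It had 116.4, 157.1 and 198.8 RPKM (lowest, median and highest) in YC livers. Vehicle livers held 117.0, 164.9 and 204.1 RPKM, and D0 livers 226.0, 249.4 and 294.2 RPKM. YC and vehicle livers covered nearly the same range, and both lay below all D0 livers. The log2 fold change was -0.01 ± 0.14 in YC against vehicle livers (adjusted p = 0.953), -0.68 ± 0.14 in vehicle against D0 livers (adjusted p = 0.000236) and -0.69 ± 0.14 in YC against D0 livers (adjusted p = 0.000299).

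The Ces2 genes differed among themselves. Ces2c, a mouse counterpart of human CES2 with acylglycerol lipase activity, was measured at 119, 79.0, 53.0, 48.5, 56.7, 94.9 and 82.3 RPKM in YC livers 1 to 7. Its lowest, median and highest levels were 15.4, 23.1 and 36.8 RPKM in vehicle livers and 44.1, 55.7 and 69.7 RPKM in D0 livers. All vehicle livers lay below all livers of the other groups, while YC and D0 livers overlapped. Ces2c was higher in YC against vehicle livers by 1.57 ± 0.20 on the log2 scale (2.98-fold, adjusted p = 2.66e-06) and by 1.46 ± 0.22 without YC 6 and YC 7 (adjusted p = 2.18e-05). It was lower in vehicle against D0 livers (-1.16 ± 0.20, adjusted p = 3.76e-05). The YC against D0 difference of 0.41 ± 0.21 did not pass (adjusted p = 0.0951), but it did without YC 4 and vehicle 1 (0.51 ± 0.20, adjusted p = 0.0305), the livers with most pancreatic acinar transcripts.

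Ces2e, an esterase of liver and intestine, had 182, 171, 139, 144, 168, 153 and 133 RPKM in YC livers 1 to 7. It ran at 112.9, 129.5 and 151.6 RPKM (lowest, median and highest) in vehicle livers and at 106.1, 115.9 and 134.2 RPKM in D0 livers. The groups overlapped, and the spread within each was small. The log2 fold change was 0.27 ± 0.11 in YC against vehicle livers (adjusted p = 0.0349) and 0.39 ± 0.11 in YC against D0 livers (adjusted p = 0.00389). Both calls depended on the scaling: after median-ratio scaling the values were -0.07 (adjusted p = 0.659) and 0.08 (adjusted p = 0.59). With the replicate block the YC against vehicle call was also lost (0.25, adjusted p = 0.075). Vehicle against D0 livers gave 0.12 (adjusted p = 0.329).

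Ces2a, which hydrolyses acylglycerols and drug esters, spread most widely of the Ces2 genes within the YC group. It had 87.9, 86.5, 127, 203, 171, 35.7 and 39.0 RPKM in YC livers 1 to 7. Its lowest, median and highest levels were 78.6, 124.4 and 169.3 RPKM in vehicle livers and 68.1, 99.6 and 163.7 RPKM in D0 livers. YC 4 and YC 5 lay above all vehicle livers, and YC 6 and YC 7 lay below all livers of the other groups. The log2 fold change was -0.40 ± 0.30 in YC against vehicle livers (adjusted p = 0.269) and 0.10 ± 0.23 without YC 6 and YC 7 (adjusted p = 0.739). Neither vehicle against D0 livers (0.18, adjusted p = 0.627) nor YC against D0 livers (-0.23, adjusted p = 0.563) passed.

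Markers of other cell types, among them enterocytes and adipocytes, which also make carboxylesterases, were measured beside these genes. Of 6 enterocyte markers, only Fabp2, which was present in all livers, exceeded a median of 2 RPKM in any group. Of the 2 tested, Fabp2 and Vil1, 1 was higher in YC against vehicle livers and 1 in YC against D0 livers. Vil1 had medians of 1.24 RPKM in YC, 0.459 RPKM in vehicle and 0.122 RPKM in D0 livers. After median-ratio scaling Vil1 did not pass in YC against vehicle livers (0.72, adjusted p = 0.0533 by limma) but was higher in YC against D0 livers (1.36, adjusted p = 0.0005). Sis and Cdx2, which define enterocytes, were listed at 0 in all 8 vehicle livers and reached at most 0.546 and 0.0883 RPKM in YC livers. Alpi reached 32.7 RPKM in YC 4. The 6 enterocyte markers summed to 32.8 to 119.3 RPKM in YC livers, 27.9 to 96.7 RPKM in vehicle livers and 25.2 to 50.5 RPKM in D0 livers. Of 6 adipocyte markers, only Adrb3 was among the genes tested, with medians of 5.42 RPKM in YC, 1.78 RPKM in vehicle and 0.916 RPKM in D0 livers. By limma it was higher in vehicle against D0 livers (0.96, adjusted p = 0.0138) and in YC against D0 livers (1.48, adjusted p = 0.00067). It did not pass in YC against vehicle livers (0.52, adjusted p = 0.181). Adipoq had a median of 0.0291 RPKM in YC livers, 0.0417 RPKM in vehicle livers and 0.0735 RPKM in D0 livers. The list summed to 1.13 to 18.2 RPKM in YC livers, 1.33 to 66.5 RPKM in vehicle livers, with the highest value in vehicle 1, and 0.706 to 8.15 RPKM in D0 livers. Neutrophil markers, 3 of 6 higher in YC against vehicle livers, summed to 33.7 to 345.7 RPKM in YC livers, 36.2 to 131 RPKM in vehicle livers and 3.88 to 55.4 RPKM in D0 livers. Without vehicle 1 and YC 4 the members were called as before in YC against vehicle livers, 2 higher and 4 lower. In vehicle against D0 livers, macrophage markers were higher in 6 of 7 (median log2 fold change 1.64) and cholangiocyte markers in 4 of 6 (1.53). In YC against D0 livers they were higher in 6 of 7 (1.33) and 6 of 6 (1.82). Over all genes, 28.2% were called higher in the first of these comparisons and 41.2% in the second. Macrophage markers summed to 140.3 to 355.1 RPKM in YC livers, 171.9 to 606.2 RPKM in vehicle livers and 56.9 to 103.6 RPKM in D0 livers. Cholangiocyte markers summed to 120.9 to 344.3 RPKM in YC livers, 128.9 to 347 RPKM in vehicle livers and 32.8 to 57.2 RPKM in D0 livers. In YC against vehicle livers, 3 of 7 stellate cell markers were higher and 3 of 5 lymphocyte markers lower. Over all genes 44.6% were higher and 6.14% lower in that comparison. The stellate and neutrophil counts lie near that share of higher genes. After median-ratio scaling 1 stellate marker was higher, 1 was lower, 2 neutrophil markers were higher and 3 lymphocyte markers were lower. Under that scaling 2336 of all 12537 genes were higher and 2076 lower. The part of these cell types in the carboxylesterase results was not tested.

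Several members split the YC livers in the same way, and a similar split showed over all genes tested. Over those genes, the SD of the log2 difference was 0.214 between YC 1 and YC 2 and 0.339 between YC 6 and YC 7. It was 0.284 to 0.432 among YC 3, YC 4 and YC 5, but 0.838 to 0.961 between these livers and YC 7. The split is therefore not particular to the carboxylesterases. Against the mean of the vehicle livers on the log2 scale, Ces3a stood at -5.38, -5.20, -0.87, -0.83, -2.64, -6.69 and -7.84 in YC livers 1 to 7. Fah stood at -1.91, -1.63, -0.45, 0.04, -0.45, -3.25 and -3.63 in the same livers. YC 6 and YC 7 were lowest and YC 3, YC 4 and YC 5 highest in both genes. Ces1e showed the same split, with -2.56, -2.46, -0.95, -0.20, -1.20, -3.08 and -3.43. Ces2c was above the vehicle mean in all 7 YC livers, from 1.00 in YC 4 to 2.28 in YC 1. The summed hepatocyte markers were lowest in YC 7 and YC 6, at 33711 and 35334 RPKM, and highest in YC 4, at 66073 RPKM. Without Alb, the other 9 markers summed to 24697, 26112, 23362, 25042, 22586, 20910 and 18466 RPKM in YC livers 1 to 7, again lowest in YC 7 and YC 6 but with YC 2 highest and YC 1 above YC 3 and YC 5. Of the 10 markers, 1 was higher and 4 were lower in YC against vehicle livers, with a median log2 fold change of -0.19. Over all genes 44.6% were higher and 6.14% lower. Whether the hepatocyte content of a liver sets its Ces3 and Ces1e level was not tested.

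**Figure D3:**
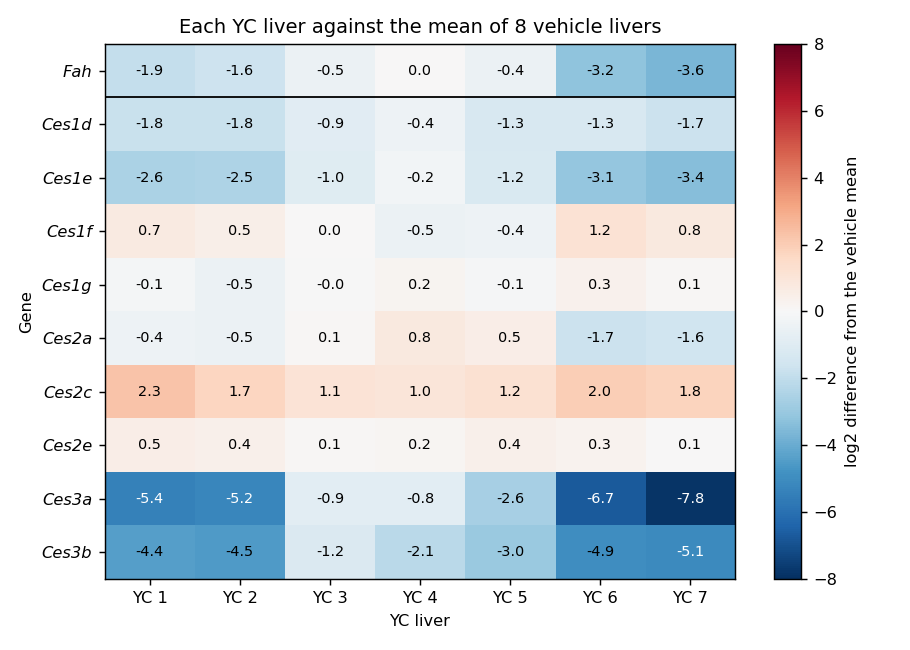
Log2 difference of each YC liver from the mean of the 8 vehicle livers (columns are YC livers, rows are Fah and the 9 carboxylesterases; red is higher, blue lower). Ces3a runs from -0.83 in YC 4 to -7.84 in YC 7, while Ces2c is above 0 in all 7 livers.

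In a ratio of 2 members within 1 liver the scaling of the library cancels, apart from the 0.5 RPKM added to each value, which weighs most where Ces3a and Ces3b are low. For the 10 pairs within a subfamily, log2 ratios were compared by exact two-sided permutation tests, adjusted over 20 tests (10 pairs and 2 comparisons; the smallest p these tests can give is 0.000311). In YC against vehicle livers 6 pairs differed. The ratio of Ces2c to Ces2e was 1.302 higher on the log2 scale in YC livers (adjusted p = 0.000888), and that of Ces2a to Ces2c was lower (-1.98, adjusted p = 0.00233). Ces1d and Ces1e each differed from Ces1f (-1.63, adjusted p = 0.00373, and -2.31, adjusted p = 0.00518) and from Ces1g (-1.29 and -1.97, adjusted p = 0.000888 for both). The ratios that passed within Ces1 set Ces1d and Ces1e against Ces1f and Ces1g, and all 4 lie side by side in the array. The ratios of Ces1d to Ces1e (0.68, adjusted p = 0.0605), Ces1f to Ces1g (0.34, adjusted p = 0.29), Ces2a to Ces2e (-0.68, adjusted p = 0.104) and Ces3a to Ces3b (-0.59, adjusted p = 0.291) did not pass.

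In vehicle against D0 livers 8 of the 10 ratios differed. By limma, 28.2% of all genes were called higher and 29.9% lower in that comparison. Pairs of other genes were not compared. How often any pair of genes would differ, here or in YC against vehicle livers, is therefore not known. Ces2c was lower relative to Ces2e (-1.28) and Ces2a higher relative to Ces2c (1.34), each with an adjusted p of 0.000888 in the exact permutation test. Within Ces1, the ratio of Ces1e to Ces1f was higher by 1.14 and that of Ces1d to Ces1e lower (-0.79), with the same adjusted p. Ces3a was higher relative to Ces3b by 0.89 (adjusted p = 0.00396), with the caution that these near-identical genes may share reads. Smaller differences passed for Ces1d to Ces1f (0.35, adjusted p = 0.0471), Ces1e to Ces1g (0.47, adjusted p = 0.00276) and Ces1f to Ces1g (-0.67, adjusted p = 0.00669). Ces1d to Ces1g (-0.32, adjusted p = 0.0789) and Ces2a to Ces2e (0.06, adjusted p = 0.778) did not pass.

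The make-up of the summed transcripts of the 9 members differed between groups. The shares below leave out the 10 other carboxylesterase genes, among them the abundant Ces1c. Those 10 genes summed to 751.6 ± 413.5 RPKM in YC livers, 1218 ± 220.5 RPKM in vehicle livers and 1756 ± 336.6 RPKM in D0 livers (SD). The 9 members summed to 798.8 ± 147.6 RPKM in YC livers (SD, n = 7), 1266 ± 244.3 RPKM in vehicle livers (n = 8) and 1421 ± 179.7 RPKM in D0 livers (n = 7). The Ces1 members made up 48.5% ± 9.11 of this sum in YC livers, 40.7% ± 5.73 in vehicle livers and 67.1% ± 2.18 in D0 livers. Ces2 genes made up 43.1% ± 7.69 in YC livers, 22.4% ± 4.82 in vehicle livers and 19.9% ± 1.33 in D0 livers. Ces3 genes made up 8.4% ± 10.3 in YC livers, 36.9% ± 9.97 in vehicle livers and 13% ± 2.23 in D0 livers.

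By mean RPKM, which is scaled to gene length, the order of the members changed with the group. In YC livers Ces1g (160.7 ± 27.2) and Ces2e (155.7 ± 18.5) led, and they did not differ beyond their spread. Ces1f (117.5 ± 48.2) and Ces2a (107.2 ± 63.6) followed, also within their spread, then Ces1d (87.9 ± 34.3), Ces2c (76.2 ± 25.5) and Ces3a (67.5 ± 90.6), with Ces1e (15.2 ± 13.1) and Ces3b (11.0 ± 13.0) last. In vehicle livers Ces3a (386 ± 156.4) stood first, above Ces1d (208.7 ± 35.7) and Ces1g (162.7 ± 32.2), and Ces1e (46.1 ± 6.59) and Ces2c (25.2 ± 8.12) were last. D0 livers were led by Ces1d (420.4 ± 95.6), Ces1g (256.9 ± 24.4) and Ces1f (222.8 ± 18.2), while Ces3b (56.4 ± 14.4), Ces2c (55.0 ± 8.43) and Ces1e (53.2 ± 5.05) were last and lay within each other's spread (all SD in RPKM).

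**Figure D4:**
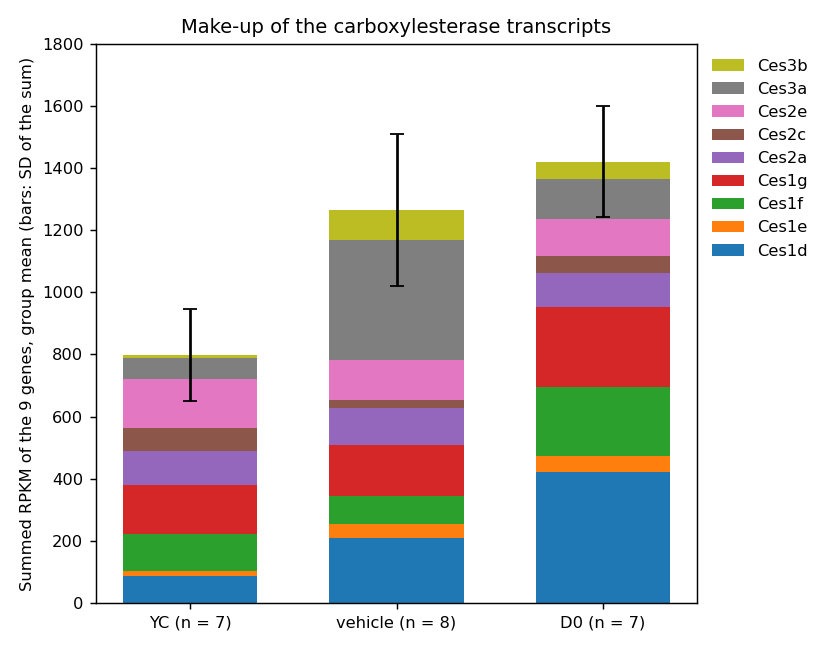
Mean summed RPKM of the 9 members in each group, stacked by gene (bars are the SD of the sum). Ces1c and the other carboxylesterases outside the 9 are not included. The Ces3 layers are thin in YC livers (mean share per liver 8.4%) and wide in vehicle livers (36.9%). Ces1 genes make up most of the D0 bar (mean share per liver 67.1%).

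Genes outside the family with the most similar profile were named by Pearson's r of log2(RPKM + 0.5) over the 22 libraries, as a description of points that share groups, libraries and depth. Ces3a was most like Cyp2c44 (r = 0.971) and Cyp4f14 (0.965), both cytochrome P450 genes, and Ces3b was most like Mup3, a major urinary protein gene (0.954), and Fndc4 (0.950). For Ces1e the closest were Serpina1d, an alpha-1-antitrypsin gene, and Fads1, a fatty acid desaturase (both 0.968). Ces1d was most like Ak3 (0.948) and Ugt3a2 (0.947), and Ces1f was most like Ugt2b5, a glucuronosyltransferase gene (0.929), and Nudt11 (0.915). Ces2c was most like Afg3l2, a subunit of a mitochondrial protease (0.958), and Bcl2l13 (0.957). The closest genes were Aqp8 (0.892) and Mreg (0.878) for Ces1g, C1ra (0.898) and F2, the prothrombin gene (0.888), for Ces2a, and Slc44a3 (0.879) and Tmc5 (0.877) for Ces2e. Between members, r was 0.935 for Ces3a and Ces3b, 0.907 for Ces1e with each of the Ces3 genes and -0.763 for Ces2c with Ces3a.

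Of 10 other carboxylesterase genes in the table, 5 passed the filter on low values. Against vehicle livers, Ces1a (1.43 ± 0.23, adjusted p = 3.74e-05) and Ces1h (0.45 ± 0.15, adjusted p = 0.0147) were higher in YC livers, and Ces1c (-0.92 ± 0.25, adjusted p = 0.00472) and Ces1b (-0.46 ± 0.18, adjusted p = 0.0361) were lower. The Ces1h call was lost after median-ratio scaling (0.34, adjusted p = 0.0605). Ces1c, the plasma carboxylesterase secreted by mouse liver, was the most abundant of the family, with 694 ± 399.6 RPKM in YC livers, 1155 ± 209.8 RPKM in vehicle livers and 1607 ± 337.3 RPKM in D0 livers. In vehicle against D0 livers 0 of the 5 were higher and 4 lower, beside 28.2% and 29.9% of all genes. Coding sequences of Ces1b and Ces1c were 91.1% identical, so reads may have been divided between them.

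Other genes of neutral lipid hydrolysis, the pathway several carboxylesterases serve, went both ways. Of 13 tested, 7 were higher and 4 lower in YC against vehicle livers (44.6% and 6.14% over all genes), with a median log2 fold change of 0.86. After median-ratio scaling 5 were higher and 4 lower (median 0.52), beside 2336 higher and 2076 lower of all 12537 genes. Lipa, lysosomal acid lipase, was higher by 1.00 ± 0.15 (adjusted p = 1.17e-05). Lipe, hormone-sensitive lipase, was higher by 1.02 ± 0.16 (adjusted p = 2.27e-05), and Nceh1, a cholesteryl ester hydrolase, by 1.18 ± 0.20 (adjusted p = 5.92e-05). Lipc, the secreted hepatic lipase, was lower (-1.36 ± 0.20, adjusted p = 1.36e-05). These 4 calls also passed after median-ratio scaling. In vehicle against D0 livers 3 of the 13 were higher and 4 lower, beside 28.2% and 29.9% of all genes. In YC against D0 livers 5 were higher and 2 lower, beside 41.2% and 12.3% of all genes. Both splits lie near those of all genes.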

How the data were processed

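Polyadenylated RNA of 22 mouse livers was sequenced, and samples were grouped from the treatment labels. The authors deposited RPKM values, 1 column per library. Per the submitters' processing notes, TopHat 1.4.1, Cufflinks 1.3.0 and the build mm10 were used. The role of each tool, the gene models, any filter and the use of strand are not stated in the labels or the file. Reads of overlapping genes cannot be told apart.

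From these values, log2(RPKM + 0.5) of the 12537 genes that reached 0.5 RPKM in 7 or more libraries (all 9 carboxylesterases among them) was fitted with limma 3.58.1 (eBayes with trend and robust, statmod 1.5.0, R 4.3.3) in 1 model of 3 groups, without covariates. P-values were two-sided, adjusted by Benjamini-Hochberg over all genes tested, and called under 0.05. Fold changes on this scale understate the change of low genes. Steps of low values gave the library depths, but only 135 of 875 genes (15.4%) came out as whole reads within 0.05 reads in all libraries, so no count test was run. No pair of libraries within a group shared an identical value above 0 in the same gene, and pairs across groups were not compared. The fit was tested on simulated data. Ratios, sums and sequence matches were computed in Python 3.11.15 (biopython 1.88, scipy 1.17.1, pandas 2.3.3, numpy 2.4.6, matplotlib 3.10.9).

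The 9 members are picked out by gene name, with no measured value in the rule, but that choice of family, the lists and the tests were made with earlier results of these data known. Named were the 9 members, the 2 most similar genes of each, and of each list up to 4 called genes with the smallest adjusted p in YC minus vehicle and up to 2 abundant uncalled ones. Marker genes of other cell types were named after their values were seen. The 17 lists held 149 entries for 146 genes. Replicate numbers were not used as pairs in the main fit. Deviations of same-numbered livers correlated at -0.386 to 0.214 in YC and vehicle. Differently numbered livers were not compared in this way, so these values do not settle whether samples are paired. Alternatives covered pseudocount, filter, scaling, weights, samples in the fit, a replicate block and leaving out libraries. Coordinates are 1-based, from GENCODE on mm10, and promoters are from RefSeq (GRCm38.p6).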

Additional observations from a re-analysis of the deposited data

How the results depend on the processing

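Of the 9 members, 6 were called in YC minus vehicle, 4 in vehicle minus D0 and 7 in YC minus D0, and with the replicate block 5, 4 and 7. Leaving out 1 library at a time gave 5 to 6, 4 to 4 and 7 to 8, and 13 to 16 ratios called, against 14 with all libraries. Over all genes, 44.6% were called higher and 6.14% lower in YC minus vehicle. The shares were 28.2% and 29.9% in vehicle minus D0, and 41.2% and 12.3% in YC minus D0. With the replicate block, 5193 and 809 of 12537 genes, 3540 and 3589, and 5028 and 1458 were called higher and lower. Directions reversed in the following differences, of which Ces2e in YC minus vehicle alone was called as deposited. Ces2a in YC minus vehicle was 0.0979 without YC 6 and YC 7, and in YC minus D0 it was 0.0281 with array weights and 0.278 without YC 6 and YC 7. Ces1f in YC minus vehicle was -0.0137 after median-ratio scaling and -0.2455 when YC 6 and YC 7 were also left out. Ces1g in YC minus vehicle was 0.0948 at equal total RPKM and ran between -0.0751 and 0.0630 when single libraries were left out. For Ces2e, YC minus vehicle, the value was -0.0689 after median-ratio scaling and -4.3e-05 when YC 6 and YC 7 were also left out; that call was also lost under quantile normalization, with 2 groups in the fit, in Y-bearing livers alone and without any of 7 single libraries (0.231 to 0.307). The cause of these changes was not tested. The settings for livers without Y-linked transcripts, and for median-ratio scaling without YC 6 and YC 7, were chosen after seeing the data. In livers without Y-linked transcripts, YC minus D0 gave 0 members higher and 6 lower, beside 3311 higher and 1115 lower of all 11493 genes. In Y-bearing livers alone, a planned setting, YC minus vehicle gave 1 member higher and 4 lower. Beside them, 4429 of all 11960 genes were higher and 751 lower. Over all genes, YC minus vehicle gave 5587 genes higher and 770 lower as deposited, 2336 and 2076 after median-ratio scaling, 2257 and 2109 after quantile normalization, and 6853 and 1391 with array weights. YC minus D0 gave 5162 higher and 1537 lower as deposited, 3372 and 3401 after median-ratio scaling, and 2916 and 3757 after quantile normalization. The lowest value of any member corresponds to about 144 reads or fragments, a rough estimate from the estimated depth and a GENCODE transcript length.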

Other observations

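Enzymes that share the drug and ester hydrolysis role of the carboxylesterases were measured in YC and vehicle livers. Of 15 tested, 3 were higher and 4 lower, beside 44.6% higher and 6.14% lower over all genes, with a median log2 fold change of -0.16 against 0.31 over all genes. After median-ratio scaling 1 was higher and 8 were lower, beside 2336 higher and 2076 lower of all 12537 genes. Pon1, the paraoxonase carried by high density lipoprotein, was lower (-1.88 ± 0.35, adjusted p = 0.000144 by limma), as were Ephx2, soluble epoxide hydrolase (-0.54 ± 0.12, adjusted p = 0.000739), and Aadac, an arylacetamide deacetylase (-0.79 ± 0.19, adjusted p = 0.00131). Esd, esterase D, was higher by 1.18 ± 0.26 (adjusted p = 0.000721). Cmbl (-0.19, adjusted p = 0.429) and Lypla1 (-0.16, adjusted p = 0.564) did not pass as deposited, and Cmbl was lower after median-ratio scaling (-0.53, adjusted p = 0.0339). Pon1 averaged 176.2 ± 150.7 RPKM in YC livers (SD, n = 7), 496.5 ± 138 RPKM in vehicle livers (n = 8) and 602.8 ± 72.9 RPKM in D0 livers (n = 7).

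Among 14 genes of triglyceride storage and secretion, 5 were higher and 1 lower in YC against vehicle livers (44.6% and 6.14% over all genes). After median-ratio scaling 3 were higher and 2 lower. Under that scaling 2336 of all 12537 genes were higher and 2076 lower, so this split lies near that of all genes. Cidec, a lipid droplet protein, was higher by 2.62 ± 0.37 (adjusted p = 7.69e-06), with 96.5 ± 56.6 RPKM in YC livers, 13.0 ± 5.06 RPKM in vehicle livers and 5.94 ± 1.84 RPKM in D0 livers. Mttp, which loads triglyceride onto lipoproteins, was higher by 1.01 ± 0.19 (adjusted p = 0.000166), whereas Apob (-0.07, adjusted p = 0.783) and Plin2 (0.42, adjusted p = 0.115) did not pass. Of 15 nuclear receptors and liver transcription factors, 3 were higher and 0 lower as deposited, beside 44.6% and 6.14% of all genes. After median-ratio scaling 1 was higher and 3 lower, beside 2336 higher and 2076 lower of all 12537 genes. The balance of this list thus depends on the scaling. Nfe2l2, the regulator of the antioxidant response, was higher in both (0.87 ± 0.14, adjusted p = 4.5e-05 as deposited). Hnf4a (0.21, adjusted p = 0.185) and Cebpa (-0.25, adjusted p = 0.228) did not pass as deposited, and Cebpa was lower after median-ratio scaling (-0.59, adjusted p = 0.0203).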
